A study of Mus musculus with 20 samples.

Results

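The expression of 35 interferon-induced genes was followed in mouse hearts that lack Acsl1, with and without rapamycin. The genes were taken as a fixed list of symbols, and all 35 were found in the deposited table of 21705 genes. Of these, 34 had a value of at least 10 in at least 5 libraries and were tested. Mx1 was too low for that filter and is given by its values only. Poly(A) RNA of heart ventricles was sequenced in 20 libraries, 5 from each of 4 groups of male C57Bl/J6 mice. The knockout groups (Acsl1H-/-) lost Acsl1, the enzyme that activates long-chain fatty acids for oxidation, in the heart. Rapamycin, which blocks signalling by the kinase mTOR, was given daily at 1 mg/kg for 2 weeks, and the vehicle groups had injections without it. The control groups were Acsl1flox/flox littermates with the same rapamycin or vehicle injections. All mice carried the floxed allele and were given tamoxifen at 75 mg/kg on 4 days, starting at an age of 6 to 8 weeks. Hearts were collected 2 weeks after tamoxifen. The Cre line is not named in the labels, and the submitters' design text counts the 5 libraries of a group as biological replicates.

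Interferons are secreted proteins that put cells into an antiviral state. Type I interferons bind a receptor whose kinases, JAK1 and TYK2, activate STAT2 among others. It joins IRF9, and the complex binds the interferon-stimulated response element in target promoters. Interferon gamma, made mainly by lymphocytes, acts on the gamma-activated sequence and through the factor IRF1. It induces most strongly the GTPases that attack vacuoles holding intracellular pathogens. In the heart, cardiomyocytes, endothelial cells, fibroblasts and macrophages all carry these receptors. The list holds signal transducers and feedback genes (Irf7, Irf9, Stat2, Usp18, Isg15), nucleic acid sensors (Ifih1, Ddx58, Dhx58, Zbp1), oligoadenylate synthetases (Oas1a, Oas2, Oas3, Oasl1, Oasl2), antiviral effectors (Ifit1, Ifit2, Ifit3, Mx1, Mx2, Rsad2, Bst2, Ifi44, Ifi35, Xaf1, Rtp4), a PARP and ubiquitin ligase group (Parp9, Parp14, Dtx3l), GTPases (Gbp2, Gbp3, Igtp, Irgm1, Ifi47, Iigp1) and the chemokine Cxcl10.

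The promoters of 6 members that hold the core of the response element are printed, since its binding is the route described above for type I interferons. Promoters of 25 of the 35 members were found in the RefSeq table (assembly GRCm38.p6). Each stretch is the 160 bases before the transcription start, 5′ to 3′ on the gene's strand, and capitals mark the letters GAAANNGAA, the core of the interferon-stimulated response element, on either strand, with overlapping matches joined. Isg15, Ifit3 and Rsad2 stand for the antiviral genes, and Gbp2, Igtp and Irgm1 for the GTPases, the group that varied most between libraries.
Isg15 (chr4:156200819-156200978, minus strand): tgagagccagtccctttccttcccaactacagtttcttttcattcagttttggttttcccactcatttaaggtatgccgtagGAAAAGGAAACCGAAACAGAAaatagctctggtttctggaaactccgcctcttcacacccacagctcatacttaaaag
Ifit3 (chr19:34583369-34583528, plus strand): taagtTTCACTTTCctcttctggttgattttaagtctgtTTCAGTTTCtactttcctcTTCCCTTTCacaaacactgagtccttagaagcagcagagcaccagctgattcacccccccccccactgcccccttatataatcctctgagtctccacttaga
Rsad2 (chr12:26456453-26456612, minus strand): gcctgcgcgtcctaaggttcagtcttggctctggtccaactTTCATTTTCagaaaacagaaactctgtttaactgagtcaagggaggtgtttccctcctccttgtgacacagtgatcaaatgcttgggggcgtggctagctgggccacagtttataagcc
Gbp2 (chr3:142620503-142620662, plus strand): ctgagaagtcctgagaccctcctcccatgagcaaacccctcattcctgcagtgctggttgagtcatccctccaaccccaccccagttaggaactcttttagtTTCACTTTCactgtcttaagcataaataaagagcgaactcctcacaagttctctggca
Igtp (chr11:58199396-58199555, plus strand): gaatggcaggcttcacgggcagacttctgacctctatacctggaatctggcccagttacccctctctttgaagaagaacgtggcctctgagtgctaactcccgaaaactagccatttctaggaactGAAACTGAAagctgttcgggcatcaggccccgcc
Irgm1 (chr11:48871421-48871580, minus strand): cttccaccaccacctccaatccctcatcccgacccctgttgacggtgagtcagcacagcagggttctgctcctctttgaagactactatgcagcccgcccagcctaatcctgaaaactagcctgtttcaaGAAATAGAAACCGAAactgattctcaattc
In Isg15 the 3 matches overlap in 1 run between 78 and 66 bases before the start, counted to the first base of each match. The 3 matches of Ifit3 stand apart from each other, the farthest 155 bases before the start. Rsad2 has 1 match at 119 bases, Gbp2 has 1 at 58 bases, Igtp has 1 at 34 bases, and Irgm1 has 2 that overlap at 30 and 24 bases. In the 250 bases before the start, searched on both strands, 14 of the 25 members held the motif, against 8.18% of the 27025 genes of the promoter table. That is 4 of the 5 GTPases with a promoter entry and 10 of the other 20 members. The letters TTCNNNGAA, the gamma-activated sequence, occurred in 4 of the 25 (Oas1a, Ifit2, Bst2 and Igtp), against 8.13% of all genes.

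The values are RSEM estimates, scaled by the authors to a common upper quartile, and are called normalized expression here. The step between low values implies 11.5 to 21.1 M reads per library, so that 1 read was worth 1.12 to 2.32 units of normalized expression. Acsl1 itself averaged 12.5% of control in knockout hearts under vehicle and 9.68% under rapamycin (exact permutation test, two-sided, p = 0.00794 in each arm). The libraries labelled knockout were therefore low in the targeted gene as labelled. Control vehicle libraries 1 and 3 lay apart from the other 18 on the first principal component of all genes (33.7% of the variance, scores of 73.4 and 84.6 against -41.7 to 19.3). Knockout vehicle library 4 and knockout rapamycin library 3 lay apart in the interferon-induced genes themselves. They were chosen as high in most of these genes, so that leaving either out lowers the mean of its group by that choice. Counts and medians without them are description only. In each comparison of the interferon-induced genes that uses any of these 4 libraries, the counts and medians are also given without them. In ventricle RNA, a change in the number of cells of a type and a change in RNA per cell cannot be told apart.

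In these hearts the interferon-induced genes covered a wide range of levels. Per kilobase of transcript, and averaged over the 20 libraries, Bst2 was highest at 655 units per kb. Bst2 encodes tetherin, which holds budding virus particles on the cell. Igtp, an immunity-related GTPase, averaged 559.5 units per kb, its relative Iigp1 466 and Irgm1 345. Gbp2, a guanylate-binding protein, averaged 335 units per kb. Without knockout vehicle 4 and knockout rapamycin 3 the order of the first 2 GTPases turned: Bst2 averaged 615 units per kb over the other 18 libraries, Iigp1 357, Igtp 349.98, Irgm1 297 and Gbp2 261. At the other end, over all 20 libraries, were Mx1 at 2.62, the GTPase Mx2 at 4.73, the synthetase Oas3 at 6.22 and Cxcl10 at 9.72 units per kb. Ligands were near the limit of the assay. Of 18 interferon genes in the table, 16 were at 0 in all 20 libraries, and only Ifnz and Ifng were above 0 in any, with a highest value of 8.90 for Ifnz. Ifng was above 0 in 5 libraries, at most 1.87, and a value of that size is about 1 read. All 6 receptor subunits in the table passed the filter.

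**Figure D1:**
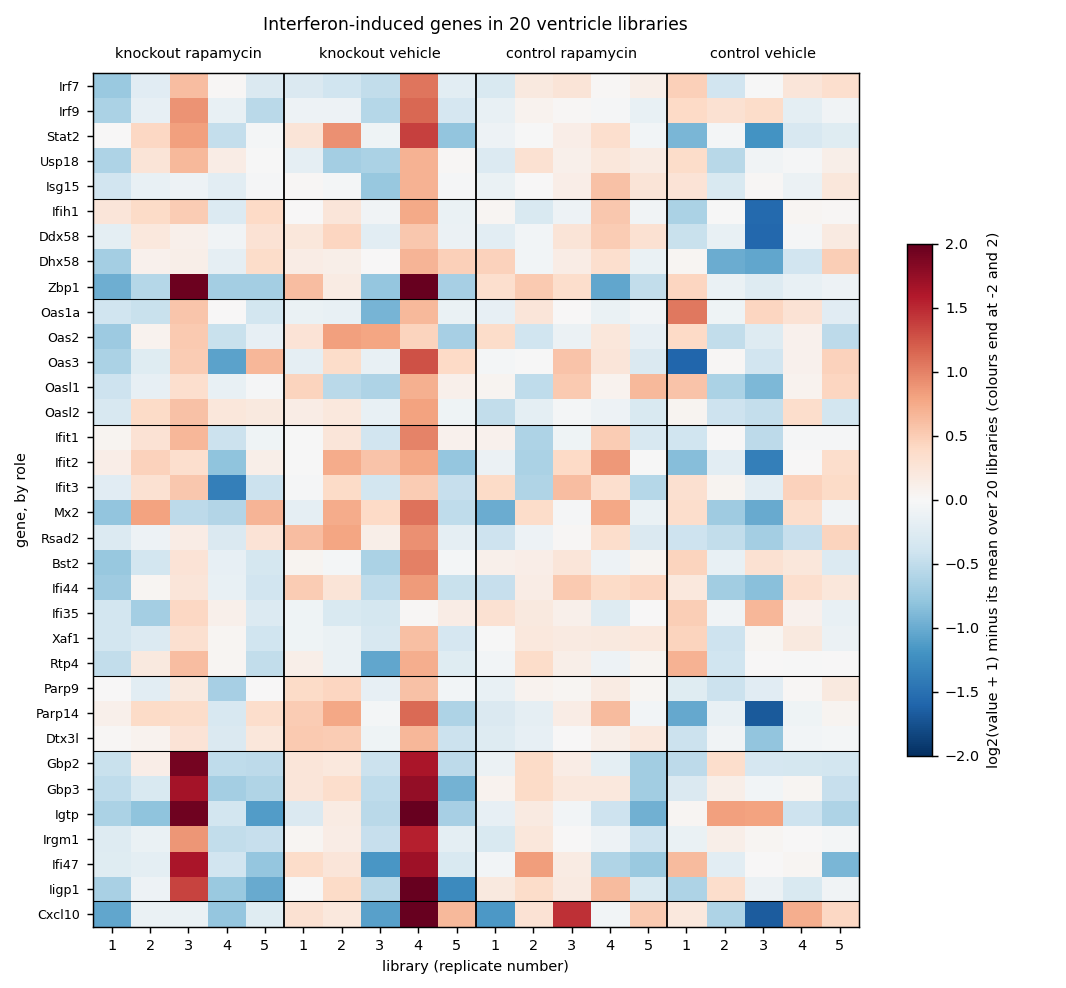
Heat map of the 34 tested genes, 1 row each and ordered by role, in the 20 libraries, 1 column each; the colour is the log2(value + 1) minus its mean over the 20 libraries. Knockout vehicle 4 was above the mean in all 34 rows, and control vehicle 3 was the lowest of 20 in 12. Control vehicle 3 also lay apart over all genes, and its share of lowest places over all tested genes is not given here.

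Under vehicle, knockout hearts had higher fitted means than control hearts for 24 of the 34 genes, but no gene passed the adjusted threshold of 0.05 in limma's test. Over all 13548 genes tested, 33 genes (0.244%) passed it. The median log2 change of the interferon-induced genes, knockout minus control on the log2(value + 1) scale, was 0.33, against 0.07 over all tested genes. At an unadjusted p under 0.05, 8 genes were higher in knockout hearts and none lower, while 31.8% of all tested genes passed that mark in either direction and 19.8% as higher. In none of the 34 did the knockout and control libraries fail to overlap, and 2.32% of all tested genes had groups that did not overlap.

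Among the 8 were the genes with the smallest p. Rsad2 encodes viperin, an enzyme that makes a chain-terminating nucleotide. Its normalized expression was 687, 774, 481, 843 and 394 in knockout vehicle libraries 1 to 5, against 335, 318, 278, 323 and 607 in control vehicle libraries 1 to 5. Control vehicle 5 lay inside the knockout range, and the other 4 control values were below all 5 knockout values. The log2 change was 0.77 ± 0.22 (SE; unadjusted p = 0.00243, adjusted p = 0.0892). It was positive in each of the 4 sequencing pools taken alone, between 0.47 and 1.28. Each pool held few libraries of a group, and control vehicle 1 and 3, which lay apart, were in pools 1 and 3. Rsad2 was split in this way as the member with the smallest p, so that the pools are no separate support.

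The 3 genes of the PARP group all had positive changes. Parp14, a mono-ADP-ribosyltransferase, had 846, 1008, 579, 1294 and 386 in knockout vehicle hearts, against 290.2, 536, 183, 554 and 615 in control vehicle hearts. Its log2 change was 0.93 ± 0.32 (SE; unadjusted p = 0.00932, adjusted p = 0.103), and control vehicle 1 and 3 were the lowest of the 10 values. Dtx3l, the ubiquitin ligase that works as a pair with PARP9, had 630.3, 621, 413, 696 and 325 in knockout vehicle hearts, against 326, 417, 252, 422 and 426 in control vehicle hearts. Its log2 change was 0.51 ± 0.19 (SE; adjusted p = 0.11), with knockout vehicle 3 and 5 inside the control range. Parp9 had 437, 453, 299, 505 and 325 in knockout vehicle hearts, against 284, 249.9, 288, 340.0 and 386 in control vehicle hearts, a log2 change of 0.37 ± 0.17 (SE; adjusted p = 0.141).

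The signal transducers did not share a direction. Stat2 had 307, 486, 243, 665 and 147 in knockout vehicle hearts, against 136, 249, 111, 206 and 216 in control vehicle hearts. Its log2 change was 0.88 ± 0.32 (SE; unadjusted p = 0.0132, adjusted p = 0.106), with library 4 the highest knockout value and control libraries 1 and 3 the lowest control values. Irf9, the DNA-binding partner of STAT2, had 570.4, 572, 414, 1359.8 and 486 in knockout vehicle hearts, against 806, 755, 791, 535 and 588 in control vehicle hearts, a log2 change of -0.15 ± 0.28 (SE; adjusted p = 0.713). Knockout library 4 lay above every control value for Irf9 and the other 4 knockout libraries did not.

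Irf7, which amplifies type I interferon production, had 339.8, 317, 296, 879 and 359.9 in knockout vehicle hearts, against 580.4, 318, 413, 492 and 527 in control vehicle hearts, with a log2 change of -0.19 ± 0.27 (SE; adjusted p = 0.621). Usp18 removes ISG15 from proteins and damps the receptor. It had 89.8, 62.9, 65.6, 166 and 104 in knockout vehicle hearts, against 132, 68.7, 97.4, 99.9 and 110.3 in control vehicle hearts, with a log2 change of -0.12 ± 0.25 (SE; adjusted p = 0.756). Isg15, the ubiquitin-like modifier, had 79.3, 75.3, 45.7, 127 and 76.1 in knockout vehicle hearts, against 93.8, 62.8, 78.9, 71.5 and 91.4 in control vehicle hearts, with a log2 change of -0.04 ± 0.21 (SE; adjusted p = 0.905). In all 3 the knockout and control ranges overlapped, and knockout library 4 was the highest of the 10 values.

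The 3 RNA helicase sensors were each at an unadjusted p under 0.05. Ddx58 encodes RIG-I, and it had 326, 378, 241, 408 and 258 in knockout vehicle hearts, against 205, 251, 92.8, 274 and 316 in control vehicle hearts (log2 change 0.58 ± 0.25 (SE; adjusted p = 0.13)). Dhx58, which encodes the regulator LGP2, had 43.4, 42.4, 39.4, 63.3 and 54.5 in knockout vehicle hearts, against 40.2, 19.1, 18.6, 29.8 and 55.2 in control vehicle hearts (log2 change 0.66 ± 0.27 (SE; adjusted p = 0.12)). Ifih1, which encodes MDA5, had 234, 275, 221, 393 and 213 in knockout vehicle hearts, against 149.6, 231, 78.9, 238 and 235 in control vehicle hearts (log2 change 0.59 ± 0.26 (SE; adjusted p = 0.139)). Control library 3 was the lowest of 20 for all 3 of them. Zbp1, a sensor of Z-form nucleic acid that can start necroptosis, had 43.4, 31.5, 15.9, 128 and 17.3 in knockout vehicle hearts, against 37.9, 25.5, 23.2, 25.3 and 26.1 in control vehicle hearts. Only knockout library 4 stood far from the rest.

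The roles with no member at the unadjusted mark were the synthetases, the GTPases and Cxcl10. The synthetases make the second messenger that activates RNase L. Oas2 had 114, 167, 163, 128 and 58.8 in knockout vehicle hearts, against 125, 66.7, 78.9, 99.9 and 65.3 in control vehicle hearts (log2 change 0.49 ± 0.28 (SE; adjusted p = 0.22)). Oasl2, a synthetase-like gene, had 216, 225, 175, 339 and 183 in knockout vehicle hearts, against 201, 145, 139, 247 and 149 in control vehicle hearts (log2 change 0.36 ± 0.20 (SE; adjusted p = 0.203)). For Oas2 4 of the 5 knockout libraries exceeded the control median, and for Oasl2 all 5 did. All 6 GTPases had positive log2 changes under vehicle, between 0.22 and 0.47. Without knockout vehicle 4, 5 of the 6 were negative and Gbp2 stood at 0.12.

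The 10 tested antiviral effectors, Rsad2 among them, shared no direction under vehicle, with 5 positive and 5 negative. Ifit3, a partner of the RNA-binding IFIT1, had 219.9, 292, 173, 319.5 and 162 in knockout vehicle hearts, against 281, 233, 195, 309 and 293 in control vehicle hearts (log2 change -0.20 ± 0.31 (SE; adjusted p = 0.666)). Bst2 had 522, 487, 324, 1008 and 489.6 in knockout vehicle hearts, against 685, 453, 619, 589 and 414 in control vehicle hearts (log2 change -0.04 ± 0.23 (SE; adjusted p = 0.911)). Xaf1, a pro-apoptotic binding partner of XIAP, had 141, 136, 119, 228 and 118 in knockout vehicle hearts, against 203, 112, 153, 169.9 and 136 in control vehicle hearts (log2 change -0.08 ± 0.19 (SE; adjusted p = 0.782)). In all 3 the ranges of the groups overlapped. Mx1, an antiviral dynamin-like GTPase, had 0, 6.74, 3.98, 17.3 and 5.19 in knockout vehicle hearts, against 0, 0, 4.64, 4.47 and 1.89 in control vehicle hearts (exact permutation test, two-sided, p = 0.222).

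The remaining members spread around 0 as well. Ifit1, which binds RNA with foreign ends, ranged from 75.4 to 231 over the 20 libraries, with a log2 change under vehicle of 0.38 ± 0.25 (SE). Its relative Ifit2 ranged from 102 to 484, with a change of 0.68 ± 0.35. Oas1a ranged from 49.4 to 198, with a change of -0.43 ± 0.26, the lowest of the 34. For Oas3 (4.46 to 38.9) the change was 0.63 ± 0.40, and for Oasl1 (32.5 to 101) it was 0.11 ± 0.31. Ifi44 stood at 0.29 ± 0.29, Ifi35 at -0.32 ± 0.19, Rtp4, a chaperone of membrane receptors, at -0.18 ± 0.27 and Mx2 at 0.53 ± 0.43. None of these 9 was at an unadjusted p under 0.05.

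The 8 genes at the unadjusted mark had longer transcripts than the other members, which was looked at after their values were seen. Their transcripts measured 2.41 to 7.42 kb (median 3.88 kb), and those of the other 26 had a median of 1.84 kb. A gradient with length ran through the whole table under vehicle. Among all tested genes of 4 kb or more (2252 genes) the median log2 change was 0.39, and among those under 1 kb (2011 genes) it was -0.17. From 2 kb to under 4 kb, the class that holds the median length of the 8 genes, it was 0.13 (4479 genes). From 1 kb to under 2 kb it was -0.08 (3260 genes). In control vehicle 1 and 3 the values themselves fell with length. Genes of 4 kb or more deviated from the mean of 20 libraries by -0.59 and -0.73 (log2) at the median. Genes under 1 kb deviated by 0.34 and 0.33. Without these 2 libraries the median change of the 8 genes was 0.36 in place of 0.62, and among all tested genes of 4 kb or more it was 0.11. In that fit 1 member in place of 8 was at an unadjusted p under 0.05, and no member was called. The share of all tested genes at that mark fell as well, to 6.75% in place of 31.8%, and to 4.29% in place of 19.8% as higher. The 8 genes then had log2 changes of 0.62 for Rsad2, 0.58 for Dhx58, 0.54 for Stat2, 0.41 for Parp14, 0.31 for Parp9, 0.29 for Dtx3l, 0.17 for Ddx58 and 0.15 for Ifih1, and Rsad2 was the member at the unadjusted mark. The median over the 34 genes was 0.19 in place of 0.33. The part of transcript length in these changes was not tested.

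Summed levels of some marker lists differed between the genotypes under vehicle. The macrophage, monocyte, neutrophil, T cell, NK cell and B cell sums overlapped between the groups. So did the plasmacytoid dendritic cell, endothelial and cardiomyocyte sums. The summed level of 4 erythroid genes was 13533 to 46552 in knockout vehicle hearts, against 60591 to 155063 in control vehicle hearts. The sum of 4 fibroblast genes was 78469 to 124950.0 in knockout vehicle hearts, against 54743 to 67327 in control vehicle hearts. The highest single value in that list was 86105.5, of Gsn. The sum of 4 atrial genes was 4141 to 61871 in knockout vehicle hearts (median 20067), against 1358 to 6054 in control vehicle hearts (median 3188), and 4 of the 5 knockout libraries lay above every control library. The part of these lists in the interferon-induced genes was not tested.

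Without knockout vehicle library 4, the median log2 change of the 34 genes under vehicle was 0.02 in place of 0.33, and no member was called. At the unadjusted mark were then 2 higher members (Parp14 and Rsad2) and 2 lower ones (Irf7 and Oas1a), in place of 8 higher. That is 5.88% of the members in each direction, against 15% of all tested genes as higher and 10% as lower. Among the GTPases, Igtp was then at -0.46 in place of 0.23 and Iigp1 at -0.22 in place of 0.32. Rsad2 (0.66), Parp14 (0.74) and Stat2 (0.62) had positive changes in this fit too. Leaving out other single libraries brought calls: without knockout vehicle 5, 5 genes passed the adjusted threshold (Dtx3l, Oas2, Parp14, Rsad2 and Stat2), and without control vehicle 5, 4 genes did (Ddx58, Dhx58, Parp14 and Rsad2). In the fit without control vehicle 5, 3090 of 13528 tested genes were called, against 33 with all libraries. That is a larger share than the 4 of 34 members, so that these 4 calls were not particular to the interferon-induced genes. The calls over all genes in the fit without knockout vehicle 5 are not given here. Its 5 calls can therefore not be read as particular to the interferon-induced genes. Over the fits that left out 1 library of this comparison, the calls over all genes ran from 8 to 3090.

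**Figure D2:**
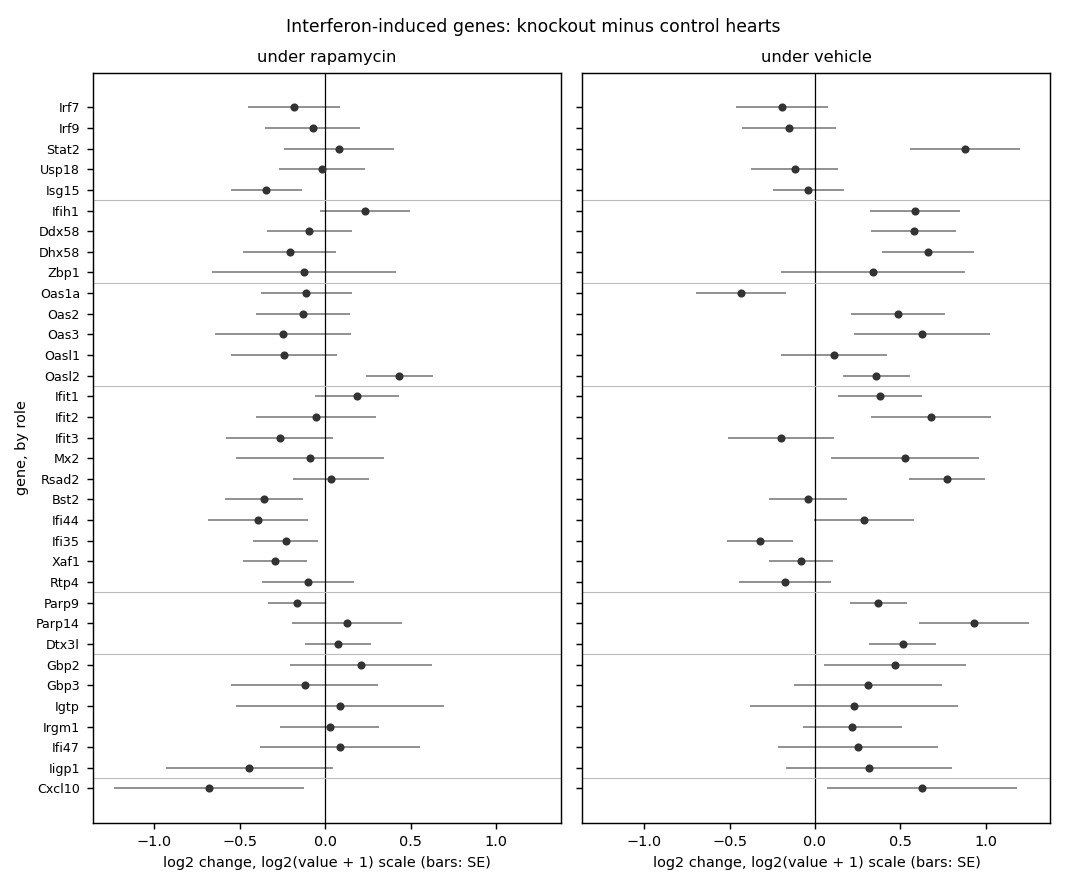
Log2 change of each tested gene, knockout minus control, with its standard error as a bar, under rapamycin (left) and under vehicle (right); 5 libraries stand in each group. Under vehicle 24 of 34 points lie above 0 and under rapamycin 11, and none passed the adjusted threshold in either arm.

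Under rapamycin, knockout and control hearts did not separate in these genes. No member passed the adjusted threshold, and 3 of all tested genes did (0.0221%). The median log2 change was -0.10 for the 34 genes and -0.02 for all tested genes, with 11 positive and 23 negative. At an unadjusted p under 0.05 stood 1 gene, Oasl2, which was higher, against 2.97% of all tested genes in either direction and 1.25% as higher. No member had groups that failed to overlap (0.878% of all tested genes). Without knockout rapamycin 3 the median of the 34 genes was -0.29, with 6 positive and 28 negative. The members at the unadjusted mark were then Bst2 and Xaf1, both lower, against 1.35% of all tested genes as lower. Without knockout rapamycin 1 the median was -0.0002. Without both knockout libraries that stood apart, 5 members were at the unadjusted mark, all lower (Bst2, Gbp3, Iigp1, Irf9 and Xaf1), against 1.33% of all tested genes as lower, and no member was called. Because these libraries were chosen as high in the members, the fits without them cannot decide a direction.

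Oasl2 had 156, 253, 290.4, 227 and 223 in knockout rapamycin libraries 1 to 5, against 138, 170.1, 189.7, 181 and 157 in control rapamycin libraries 1 to 5. Its log2 change was 0.43 ± 0.20 (SE; unadjusted p = 0.0395, adjusted p = 1), and 4 of the 5 knockout values exceeded the highest control value. The next in order had negative changes. Isg15 had 59.2, 70.3, 72.2, 67 and 76.1 in knockout rapamycin hearts, against 71, 78.2, 85.3, 117 and 92.5 in control rapamycin hearts (log2 change -0.34 ± 0.21 (SE; adjusted p = 1)). Bst2 had 296, 386, 605, 447 and 392 in knockout rapamycin hearts, against 536, 549, 590.3, 468 and 519.6 in control rapamycin hearts (log2 change -0.36 ± 0.23 (SE; adjusted p = 1)). Knockout rapamycin 1 was the lowest of the 10 for both Isg15 and Bst2. Xaf1 had 116, 123, 186, 153 and 112 in knockout rapamycin hearts, against 148, 172, 169, 171 and 173 in control rapamycin hearts (log2 change -0.29 ± 0.19 (SE; adjusted p = 1)).

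The genes with the smallest p under vehicle had log2 changes near 0 under rapamycin. Rsad2 had 368, 413, 491, 363 and 541 in knockout rapamycin hearts, against 335, 413, 455, 569 and 365 in control rapamycin hearts (log2 change 0.03 ± 0.22 (SE; adjusted p = 1)). Parp14 had 634, 768, 763, 474 and 759 in knockout rapamycin hearts, against 482, 522, 654, 913 and 569 in control rapamycin hearts (log2 change 0.13 ± 0.32 (SE; adjusted p = 1)). Stat2 had 256, 340.0, 454, 184 and 250.0 in knockout rapamycin hearts, against 239, 255, 281, 322 and 247 in control rapamycin hearts (log2 change 0.08 ± 0.32 (SE; adjusted p = 1)). The knockout and control ranges overlapped in all 3. Mx1 had 8.26, 4.3, 5.15, 2.08 and 2.27 in knockout rapamycin hearts, against 8.43, 1.7, 7.86, 3.94 and 6.67 in control rapamycin hearts (exact permutation test, two-sided, p = 0.508).

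In the other genes described under vehicle the groups overlapped as well. Irf7 had 248, 354, 643, 424 and 339.8 in knockout rapamycin hearts, against 336, 478, 496, 426 and 452 in control rapamycin hearts (log2 change -0.18 ± 0.27 (SE; adjusted p = 1)). Irf9 had 394, 548, 1148, 555 and 422 in knockout rapamycin hearts, against 551, 648, 626, 605 and 553 in control rapamycin hearts (log2 change -0.07 ± 0.28 (SE; adjusted p = 1)). Knockout rapamycin 3 was the highest of the 10 values for both, and knockout rapamycin 1 the lowest. Usp18 had 66.1, 122, 159.8, 113 and 101 in knockout rapamycin hearts, against 84.1, 126, 109, 119.6 and 114 in control rapamycin hearts (log2 change -0.02 ± 0.25 (SE; adjusted p = 1)). Ifit3 had 191, 277, 328, 86.5 and 166 in knockout rapamycin hearts, against 293, 147, 343, 283 and 150.4 in control rapamycin hearts (log2 change -0.27 ± 0.31 (SE; adjusted p = 1)). For Usp18 knockout rapamycin 3 was again the highest, and for Ifit3 knockout rapamycin 4 was the lowest.

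The difference between the genotype effects of the arms was fitted directly. No member passed the adjusted threshold in this interaction (0% of all tested genes). At an unadjusted p under 0.05 there were 3 members, Rsad2 at -0.74 ± 0.32 (SE; adjusted p = 0.523), Dhx58 at -0.87 ± 0.38 (SE; adjusted p = 0.523) and Parp9 at -0.54 ± 0.24 (SE; adjusted p = 0.523), all negative. Of all tested genes, 8.3% passed that mark and 6.07% with a negative value. Ddx58 came next at -0.67 ± 0.35 (SE; adjusted p = 0.523). In knockout rapamycin hearts Dhx58 had 24.2, 41.6, 42.5, 34.4 and 50.8 and Ddx58 had 244, 324, 299, 265 and 339.8. Parp9 had 338, 291, 386, 211 and 338 in knockout rapamycin hearts, against 302, 352, 345, 377 and 347 in control rapamycin hearts. For none of the 3 did the groups separate in the rapamycin arm. The median over the 34 genes was -0.35, and -0.09 over all tested genes. Without knockout vehicle 4 the median was -0.11 and no member was at the unadjusted mark, against 6.83% of all tested genes in either direction. Without knockout rapamycin 3 the median was -0.54 and 4 members were at that mark, all negative, against 3.86% of all tested genes with a negative value. Without control vehicle 1 and 3 the median was -0.32 and no member was at it, against 3.55% of all tested genes. Over the fits that left out 1 library, 0 to 7 members were there, 7 of them without knockout vehicle 5. The share of all tested genes in that last fit is not given here, so that the 7 cannot be read as particular to the interferon-induced genes.

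Averaged over the arms, knockout minus control gave 6 members at an unadjusted p under 0.05, all higher, against 19.1% of all tested genes in either direction and 10.4% as higher, and none at the adjusted threshold (0.443% of all genes). The smallest p were those of Oasl2 at 0.40 ± 0.14 (SE; adjusted p = 0.205), Rsad2 at 0.40 ± 0.16 (SE; adjusted p = 0.229), Parp14 at 0.53 ± 0.23 (SE; adjusted p = 0.248) and Ifih1 at 0.41 ± 0.19 (SE; adjusted p = 0.256). Ifih1 had 275, 303, 329.9, 192 and 306 in knockout rapamycin hearts, against 239, 187, 215, 338 and 221 in control rapamycin hearts. The median over the 34 genes was 0.12, and it was -0.20 without knockout vehicle 4 and knockout rapamycin 3. In that fit 10 members were at the unadjusted mark, Oasl2 higher and the other 9 lower (Bst2, Ifi35, Igtp, Iigp1, Irf7, Irf9, Isg15, Oas1a and Xaf1), against 8.3% of all tested genes as higher and 7.35% as lower. Both libraries were chosen as high in these same genes, so that this fit cannot decide a direction of the members. Without control vehicle 1 and 3 the median was 0.08 and Oasl2 alone was at that mark, against 4.27% of all tested genes as higher.

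Rapamycin in knockout hearts left no member past the adjusted threshold, and 1 of all tested genes (0.00738%) passed it. Of the 34 genes 29 had negative and 5 positive changes, rapamycin minus vehicle, with a median of -0.19, against -0.02 over all tested genes. At an unadjusted p under 0.05 there were 2 members, both lower, against 5.71% of all tested genes in either direction and 3.42% as lower. These were Rsad2, with the knockout values given above and a log2 change of -0.51 ± 0.22 (SE; unadjusted p = 0.0341, adjusted p = 0.809), and Parp9. Parp9 had 338, 291, 386, 211 and 338 in knockout rapamycin hearts, against 437, 453, 299, 505 and 325 in knockout vehicle hearts, a log2 change of -0.37 ± 0.17 (SE; unadjusted p = 0.0401, adjusted p = 0.83). The groups overlapped for every member (1.85% of all tested genes did not overlap).

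Next in order were Oas2 and Cxcl10. Oas2 had 56.5, 99, 136, 68.7 and 84.1 in knockout rapamycin hearts, against 114, 167, 163, 128 and 58.8 in knockout vehicle hearts (log2 change -0.48 ± 0.28 (SE; adjusted p = 0.926)). Cxcl10, which attracts T cells that carry CXCR3, had 4.13, 8.61, 8.59, 5.15 and 7.95 in knockout rapamycin hearts, against 12, 11.2, 3.98, 44.7 and 15.6 in knockout vehicle hearts (log2 change -0.90 ± 0.56 (SE; adjusted p = 0.947)). Knockout vehicle 4 was highest for Cxcl10, and 1 read was worth 1.12 to 1.99 units in these 10 libraries. Without knockout vehicle 4 the median over the 34 genes was 0.03 in place of -0.19, and no member was at the unadjusted mark (5.55% of all tested genes). Without knockout rapamycin 3 the median was -0.37 and 5 members were at that mark, all lower (Bst2, Oas2, Parp9, Rsad2 and Zbp1), against 2.87% of all tested genes as lower. Without both libraries the median was -0.16 and no member was at it (4.6% of all tested genes). Mx1 had an exact permutation p of 0.921 (two-sided) in this comparison.

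Rapamycin in control hearts likewise left no member past the adjusted threshold, and none of all tested genes passed it (0%). Here 24 changes were positive and 10 negative, with a median of 0.15, against 0.07 over all tested genes. At an unadjusted p under 0.05 there was 1 member, Ddx58, which was higher, against 14.9% of all tested genes in either direction and 10.6% as higher. Ddx58 had 241, 269, 332, 397 and 343 in control rapamycin hearts, against 205, 251, 92.8, 274 and 316 in control vehicle hearts (log2 change 0.56 ± 0.25 (SE; unadjusted p = 0.0362, adjusted p = 0.33)). Control vehicle 3 was far below the other 9 values. Dhx58 had 54.2, 37.4, 43.4, 49.8 and 35.6 in control rapamycin hearts, against 40.2, 19.1, 18.6, 29.8 and 55.2 in control vehicle hearts (log2 change 0.53 ± 0.27 (SE; adjusted p = 0.339)).

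Parp14 and Stat2 were next, at log2 changes of 0.63 ± 0.32 (SE; adjusted p = 0.34) and 0.60 ± 0.32 (SE; adjusted p = 0.348), and for both the lowest of the 10 libraries were control vehicle 1 and 3. Without these 2 libraries no member was at the unadjusted mark (3.47% of all tested genes) and the median was 0.11. Cxcl10 had 3.74, 11.9, 28.1, 9.2 and 14.2 in control rapamycin hearts, against 11.2, 5.89, 2.32, 16.4 and 13.1 in control vehicle hearts (log2 change 0.40 ± 0.56 (SE; adjusted p = 0.689)), with control rapamycin 3 the highest of the 10 and control vehicle 3 the lowest. No member's groups failed to overlap (1.46% of all tested genes). Mx1 had an exact permutation p of 0.0952. This comparison and that of the genotypes under vehicle share the control vehicle libraries, so that their opposite or equal signs are not independent. Averaged over the genotypes, rapamycin left no member at the unadjusted mark (9.23% of all tested genes) or past the adjusted threshold (0.125%). The smallest p there were those of Ifih1 at 0.27 ± 0.19 (SE; adjusted p = 0.654), Ddx58 at 0.23 ± 0.18 (SE; adjusted p = 0.676), Bst2 at -0.19 ± 0.16 (SE; adjusted p = 0.697) and Igtp at -0.48 ± 0.43 (SE; adjusted p = 0.714). The median was -0.03, and 0.09 without knockout vehicle 4, -0.14 without knockout rapamycin 3 and -0.05 without control vehicle 1 and 3, with no member at the unadjusted mark in any of these fits.

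**Figure D3:**
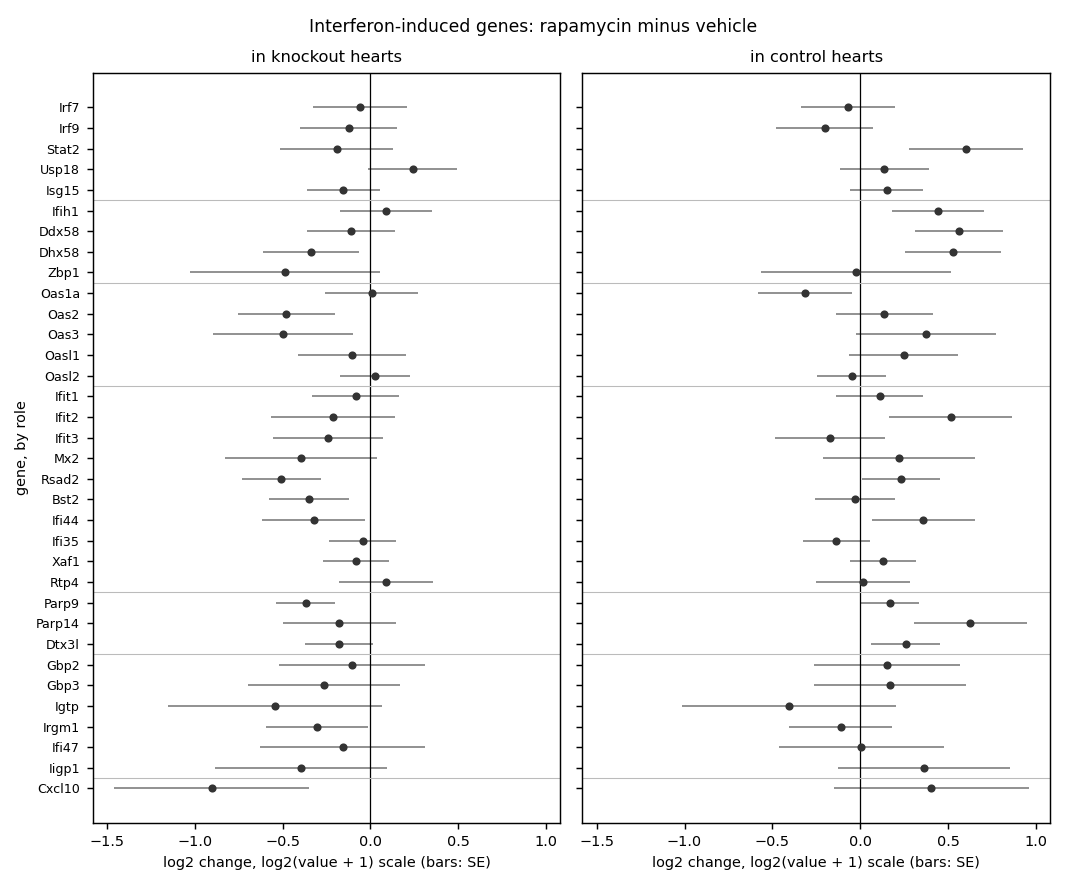
Log2 change of each tested gene, rapamycin minus vehicle, with its standard error as a bar, in knockout hearts (left) and in control hearts (right); 5 libraries stand in each group. In knockout hearts 29 of 34 points lie below 0 and in control hearts 10, and none passed the adjusted threshold.

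Hearts of 1 group varied widely in these genes. Knockout vehicle 4 was the highest of the 20 libraries for 28 of the 34 genes, a place it took for 5.31% of all tested genes. Knockout rapamycin 3 was the highest for 1 and among the 2 highest for 13, places whose share over all tested genes is not given here. Both held the 2 highest values for 12 members (Irf7, Irf9, Usp18, Zbp1, Oasl2, Ifit1 and all 6 GTPases), and for 92 of all tested genes (0.679%). The 2 libraries come from different drug arms and different sequencing pools, pool 4 and pool 3. They were singled out after their values were seen, so that no test is given.

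The GTPases showed this most. Igtp had 468, 416, 2808, 563 and 334 in knockout rapamycin hearts and 596, 814, 497, 6151 and 457 in knockout vehicle hearts, against 649, 824, 698, 543 and 372 in control rapamycin hearts and 747, 1280.2, 1269, 542 and 470.2 in control vehicle hearts. Its value in knockout vehicle 4 was 11.1 times the median of the other 18 libraries, and in knockout rapamycin 3 it was 5.08 times that median. Gbp2 had 537, 802, 2768, 515 and 510.2 in knockout rapamycin hearts and 865, 844, 541, 2263 and 509 in knockout vehicle hearts, against 671, 951, 815, 641 and 454 in control rapamycin hearts and 511, 929.8, 580.0, 575 and 565 in control vehicle hearts. For Gbp2 knockout rapamycin 3 was the higher of the 2 libraries. Iigp1 stood at 5563 in knockout vehicle 4 and 2903 in knockout rapamycin 3, and at 469 to 1753 in the other 18. Irgm1, which regulates the other members of its family and autophagy, stood at 2053 and 1292 in these libraries, and at 497 to 823 in the other 18. Gbp3 stood at 1273 and 1202 in the same order, against 196 to 493, and Ifi47 at 524 and 502, against 71.6 to 291. None of the 6 had a value in the other 18 libraries as high as in either of these.

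**Figure D4:**
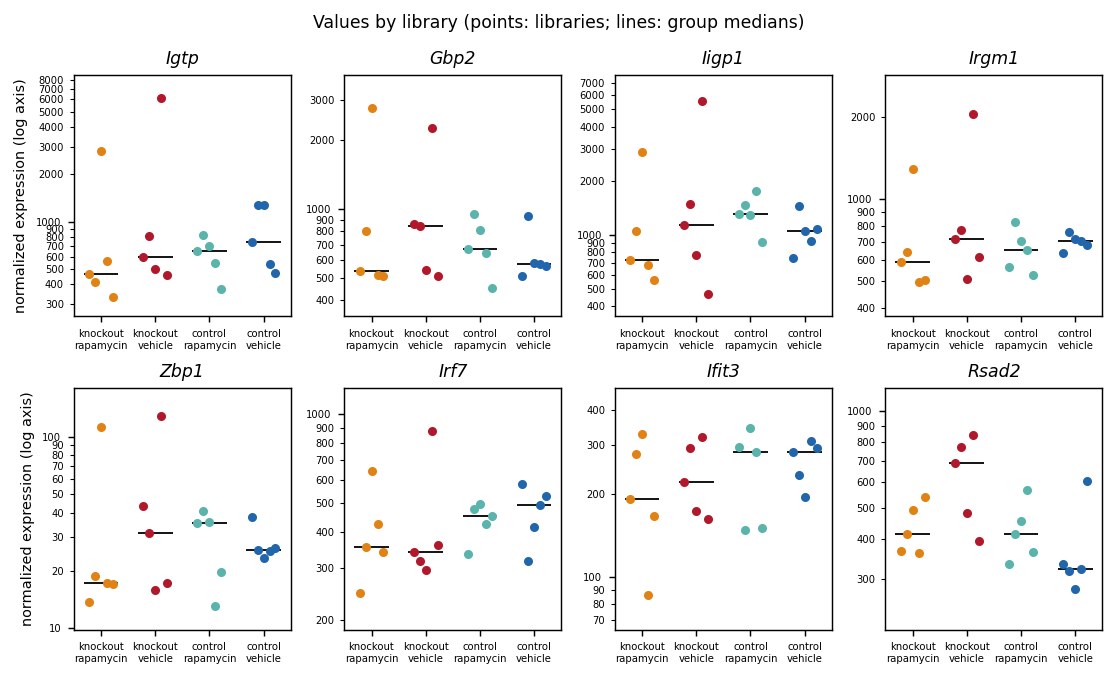
Normalized expression of 8 genes by library on log axes, with 1 point per library and a line at the median of each group of 5. Knockout rapamycin 3 and knockout vehicle 4 stand above all other points for Igtp, Gbp2, Iigp1, Irgm1, Zbp1 and Irf7, but for Ifit3 and Rsad2 they do not stand apart as a pair.

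Outside the GTPases the excess was smaller and differed between the libraries. Over the median of the other 18, the 6 GTPases were 3.17 to 11.1 times higher in knockout vehicle 4 (median 3.85) and 2.00 to 5.08 times higher in knockout rapamycin 3 (median 3.57). The other 28 members had a median ratio of 1.70 in knockout vehicle 4 and 1.35 in knockout rapamycin 3. Zbp1 was the largest exception, at 5.28 and 4.60 times. Isg15 was 1.67 times the median in knockout vehicle 4 and 0.948 times in knockout rapamycin 3. Cxcl10 was 4.39 times the median in knockout vehicle 4 and 0.844 times in knockout rapamycin 3.

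Both libraries were also high in other genes of the pathway. Irf1, a transcription factor that interferon gamma induces, stood at 1475 in knockout vehicle 4 and 1204 in knockout rapamycin 3, against 350.3 to 817 in the other 18. Ranked by the ratio of the lower of the 2 libraries to the highest of the other 18, among 10338 genes with a mean of at least 100, the first 10 held 4 members and 4 other pathway genes (Irgm2, Gbp5, Tgtp2 and Tap1). The other 2 were Cd274, which encodes the checkpoint ligand PD-L1, and Siglec1, a macrophage lectin. The T cell chemokine Cxcl9 stood at 524 and 277, against 47.7 to 199. These genes were named after their values were seen. Both libraries were chosen as high in the members, so that the members' places in this ranking follow from that choice and are no separate support. Several of the GTPases have close copies in the genome, and how RSEM divided reads among copies could not be followed in these values.

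**Figure D5:**
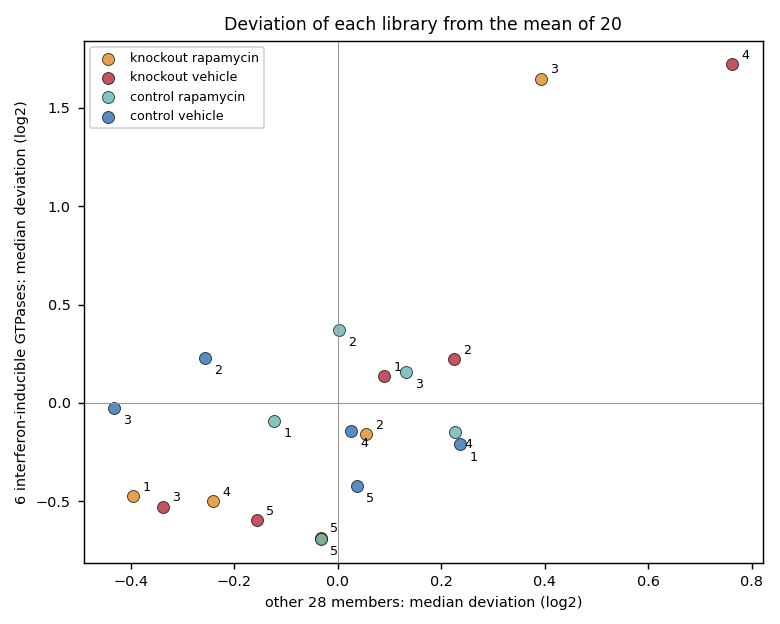
Each library's median deviation (log2) from the mean of 20 for the 6 GTPases (vertical axis) against the same for the other 28 members (horizontal axis), with 1 numbered point per library coloured by group. Knockout vehicle 4 (0.76 for the other members, 1.72 for the GTPases) and knockout rapamycin 3 (0.39 and 1.65) stand apart from the remaining 18.

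Markers of lymphoid cells, among them the T and NK cells that make interferon gamma, were low in all 20 libraries. The highest single value of any T cell marker in any library was 62.6 (Cd8b1), of any NK cell marker 31.7 (Gzma), of any B cell marker 53.6 (Cd79a) and of any plasmacytoid dendritic cell marker 17.8 (Ly6d). Summed over 6 genes, T cell markers were 76.3 in knockout vehicle 4 and 56.7 in knockout rapamycin 3, against 53.4 to 123 in the other 18. The NK cell sum of 6 genes was 76.3 and 35.8, against 7.49 to 50.6, which made knockout vehicle 4 the highest of 20 and knockout rapamycin 3 rank 4 of 20. The macrophage sum of 8 genes was 11973 and 8486, against 5700.4 to 9251, again highest in knockout vehicle 4 and rank 6 of 20 in knockout rapamycin 3. The atrial sum of 4 genes was 61871 in knockout vehicle 4, the highest of 20, and 8737 in knockout rapamycin 3, rank 10 of 20. The part of these cells in the result was not tested.

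Of the wider pathway, 111 further genes were in the table and 91 were tested, and none passed the adjusted threshold in any of the 7 comparisons. Under vehicle, 23 of them were higher and 4 lower in knockout hearts at an unadjusted p under 0.05, with a median log2 change of 0.25, against 0.07 over all tested genes. That is 25.3% of the 91 as higher, against 19.8% of all tested genes. Without control vehicle 1 and 3 it was 6 higher and none lower (median 0.20), and without knockout vehicle 4 it was 10 higher and 3 lower (median 0.14). As higher this was 6.59% and 11% of the 91, against 4.29% and 15% of all tested genes in the same fits. As lower, 2.46% and 10% of all tested genes were at the mark. The smallest p were those of Mnda, a DNA-binding protein of myeloid cells, at 1.13 ± 0.31 (SE; adjusted p = 0.0862), and the nuclear body protein gene Sp140, at 0.95 ± 0.27 (SE; adjusted p = 0.0892). Sp140 also led the list for rapamycin in control hearts at 0.94 ± 0.27 (SE; adjusted p = 0.328) and for the interaction at -1.09 ± 0.38 (SE; adjusted p = 0.523), and these 3 changes of Sp140 were 0.44, 0.44 and -0.58 without control vehicle 1 and 3. Oas1b, an inactive synthetase, stood at -0.83 ± 0.37 (SE; adjusted p = 1) under rapamycin and at -1.46 ± 0.53 (SE; adjusted p = 0.523) in the interaction.

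Ifngr2, the signalling subunit of the interferon gamma receptor, had the smallest p of the pathway in 4 comparisons. It had 4410.5, 4187, 4313, 4658 and 3857 in knockout rapamycin hearts, against 5168, 5154, 4719.7, 5608 and 6145 in knockout vehicle hearts. In control hearts it had 4877, 5576, 5588, 4604 and 4806 with rapamycin, against 6781, 5703, 7847, 6504 and 5177 with vehicle. Averaged over the genotypes the log2 change with rapamycin was -0.32 ± 0.08 (SE; unadjusted p = 0.00045, adjusted p = 0.113), and averaged over the arms the change in knockout hearts was -0.25 ± 0.08 (SE; adjusted p = 0.158). Every knockout rapamycin library was below every knockout vehicle library for this gene. It was 1 of the 91 tested pathway genes without overlap in that comparison, against 1.85% of all tested genes. The receptor kinase gene Tyk2 stood at -0.34 ± 0.13 (SE; adjusted p = 0.648) for rapamycin in knockout hearts. Mavs, the adaptor of RIG-I and MDA5, stood at -0.31 ± 0.09 (SE; adjusted p = 0.328) for rapamycin in control hearts and at -0.20 ± 0.07 (SE; adjusted p = 0.313) averaged over the genotypes. Irf1 had a change of 0.58 ± 0.26 (SE; adjusted p = 0.143) in knockout hearts under vehicle, and of 0.34 without knockout vehicle 4 and 0.46 without control vehicle 1 and 3. Ifngr2 stood at -0.25 for rapamycin averaged over the genotypes without control vehicle 1 and 3.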

How the data were processed

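Poly(A) RNA libraries of heart ventricles were sequenced in 4 pools, per the labels. The submitters' processing notes name the build mm9, RSEM, SAMtools and Picard 1.64. The aligner, the annotation and the strand of the libraries were not found in these sources. The deposited values are a normalized signal: the authors' RSEM estimates of each gene after scaling to a common upper quartile, which lay between 996.6 and 1000 in every library (75th percentile of values above 0). They are not counts. Low values were whole multiples of 1 step per library for 85.7% to 88.4% of values within 0.05, too few to recover reads.

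Values were taken as log2(value + 1), which understates changes of low genes, and genes with a value of at least 10 in at least 5 libraries (13548) were fitted together with limma 3.58.1 in R 4.3.3: a mean per group, an intensity trend, two-sided tests and Benjamini-Hochberg adjustment over all genes, threshold 0.05. Single genes outside the fit were compared by exact permutation over 252 regroupings. The 7 comparisons were the genotypes in each arm, the drug in each genotype, the interaction and the averaged effects. The fit was tested on simulated data. Alternatives were other pseudocounts (0.5 and 10), no filter, a mean of at least 100, median-ratio and quantile scaling, a term for the pool, a replicate block, only the groups compared, robust fits with array weights, and leaving out libraries.

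The members and lists were chosen with earlier results of these data known. Values in every library of the groups compared are given for Irf7, Stat2, Irf9, Usp18, Isg15, Ifit3, Cxcl10 and Gbp2 and, per comparison, for the 4 members with the smallest p. Transcript lengths are medians over protein-coding transcripts in GENCODE M21. Promoters are RefSeq's (GRCm38.p6), a different build from the authors', and no coordinate was converted.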

Additional observations from a re-analysis of the deposited data

Results flagged for a closer look

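In groups of 5 libraries, the highest or lowest value was set apart from its neighbours by Dixon's criterion (gap over range above 0.71) in 18 of 152 groups. Gap and range were taken on the log2(value + 1) scale, while the values printed here are normalized expression. The criterion's rate of about 5% is that of a single group. All genes use the same 20 libraries, so that the groups are not independent and the 18 cannot be set against that rate. The groups covered the 35 members and 3 further genes. Of the 18, 7 were high values of knockout rapamycin 3: Zbp1 at 111.7, Gbp2 at 2768, Gbp3 at 1202, Igtp at 2808, Irgm1 at 1292, Ifi47 at 502 and Irf1 at 1204. Another 4 were high values of knockout vehicle 4: Irf7 at 879, Irf9 at 1359.8, Xaf1 at 228 and Igtp at 6151.

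The other 7 were spread over the groups. Knockout rapamycin 4 was low for Ifit2 at 151. In control rapamycin hearts, library 1 was low for Xaf1 at 147.6 and library 5 was low for Gbp3 at 233. In control vehicle hearts, library 1 was high for Zbp1 at 37.9, library 2 was high for Gbp2 at 929.8, library 5 was high for Rsad2 at 607, and library 3 was low for Irf1 at 350.3. Libraries of the same group share no order, and these values were not tested further.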

How the results depend on the processing

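No member was called in any of the 7 comparisons under any setting that kept all libraries, nor without control vehicle 1 and 3 or without knockout vehicle 4 and knockout rapamycin 3 (this last pair chosen after seeing the data). Leaving out 1 library gave 0 to 5 called members under vehicle (5 without knockout vehicle 5, 4 without control vehicle 5, 0 otherwise) and 0 in every other comparison; the cause was not tested. Over all genes, the 33 calls under vehicle became 3 with only the groups compared, 4 without control vehicle 1 and 3, and 56 with a pool term; leaving out 1 library gave 8 to 3090. The calls of the averaged genotype effect were 60, and 11 without control vehicle 1 and 3. Robust fits with array weights called 12 genes under vehicle, 14 in place of 3 under rapamycin, 131 in place of 60 for the averaged genotype effect, 35 in place of 17 for the averaged drug effect and 58 in place of 1 for rapamycin in knockout hearts. The averaged drug effect had 0 calls with a pool term, 4 without control vehicle 1 and 3, and 3 without the 2 knockout libraries. Without a filter the averaged genotype effect had 37 calls.

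The replicate numbers only name the libraries: same-numbered deviations correlated between -0.515 and 0.272. With the replicate block, 0 members and 49 genes were called under vehicle, and 5 genes in place of 17 for the averaged drug effect. Quantile scaling moved the median of all genes by -0.107 under vehicle and 0.118 in the interaction. The median of the members for rapamycin in control hearts was then -0.02 in place of 0.15. Depth limits Mx1, Mx2, Cxcl10 and Oas3, which had low read numbers.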
